A study of Mus musculus with 20 samples.

Results

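Ribosomal protein genes encode the proteins of the small and the large subunit of the cytoplasmic ribosome. Members were the array probe sets with a single gene symbol that starts with Rpl or Rps plus a digit, or that is Rpsa, Rplp0, Rplp1 or Rplp2, without the Rps6k kinases and without symbols marked as pseudogenes by -ps. The rule used no measured value. It found 49 probe sets of 35 genes among 12422 probe sets on the array, and 44 of the 49, which represent all 35 genes, passed the filter on dim signals. The genome annotation lists 34 of the 35 as protein coding and Rps4l as a transcribed pseudogene. Rplp1 and Rplp2 were not analysed here.

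The arrays measured total RNA of sorted cells from adult mice of the inbred strain C57BL/10SnJ. Cells came from muscle or from bone marrow, and each tissue gave an SP and an MP group, which makes 4 groups of 5 arrays each. SP stands for side population, the few cells that pump a Hoechst DNA dye out, and MP for main population, the cells that keep the dye. No treatment, transgene or age beyond adult is given, and whether the replicates of a group are different animals or different sorts is not stated. The p-values therefore rest on a spread between arrays that may be technical.

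Each ribosome holds one copy of most of these proteins, and cells make them in step with ribosomal RNA, which RNA polymerase I transcribes. Their mRNAs begin with a run of pyrimidines, the terminal oligopyrimidine tract, through which mTOR signalling and the RNA-binding protein Larp1 control their translation. In bone marrow the family is known from Diamond-Blackfan anaemia, in which the loss of 1 copy of genes such as Rps19, Rps24 or Rps10 impairs red cell production. Blood stem cells at rest are known for a low rate of protein synthesis.

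Promoter sequences of the 7 genes that the results turn on are shown because all 7 rose in bone marrow SP. They are stretches of 70 bases from RefSeq promoter windows of assembly GRCm38.p6, 5′ to 3′ along the gene. Each stretch was placed by hand and holds a marked motif, so the stretches are not matched in position. The first base lies at -220 from the annotated start for Rpsa, at -42 for Rpl10a and at -50 or -60 for the others. For Rpl10a and Rpl22 the second listed start was taken. Capitals mark CCGGAAG, the core site of ETS factors, or its reverse complement CTTCCGG, and the pyrimidine run CTTTCC. The stretches lie at chr9:120127546-120127615 and chr11:98026650-98026719 on the plus strand for Rpsa and Rpl19, and at chr12:28635944-28636013 and chr17:27635225-27635294 on the minus strand for Rps7 and Rps10. Those of Rpl10a and Rpl22 lie at chr17:28328523-28328592 and chr4:152325666-152325735 on the plus strand, and that of Rpl13a at chr7:45128726-45128795 on the minus strand.

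Rpsa: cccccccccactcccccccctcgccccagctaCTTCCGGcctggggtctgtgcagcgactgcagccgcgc

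Rps7: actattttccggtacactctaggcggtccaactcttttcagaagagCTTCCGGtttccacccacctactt

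Rps10: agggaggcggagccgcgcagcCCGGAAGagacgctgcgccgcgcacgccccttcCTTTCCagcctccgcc

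Rpl19: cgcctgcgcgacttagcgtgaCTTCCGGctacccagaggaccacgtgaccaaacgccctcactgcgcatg

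Rpl10a: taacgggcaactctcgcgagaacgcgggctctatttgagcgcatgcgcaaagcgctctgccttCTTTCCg

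Rpl13a: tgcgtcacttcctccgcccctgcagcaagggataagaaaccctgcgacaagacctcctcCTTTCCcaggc

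Rpl22: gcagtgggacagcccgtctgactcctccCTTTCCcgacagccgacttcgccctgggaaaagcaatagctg

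RefSeq gave a window, from 250 bases before to 50 after the start, for 28 of the 35 member genes and for 27025 genes in all. Either strand of the window held CCGGAAG for 12 of the 28 members (42.86%) and for 9.93% of all genes. CTTTCC was present for 17 members (60.71%) against 29.32% of all genes, and AAGATGGC, the core site of the factor YY1, for 5 members (17.86%) against 3.19%. A TATA box, TATAAA, was found for 4 members (14.29%) against 15.67% of all genes, and the E-box CACGTG for 3 members (10.71%) against 8.09%. Of the 28 genes, 18 had a probe set that rose in bone marrow SP and 10 had none. ETS cores were present for 8 of the 18 and 4 of the 10, and CTTTCC for 12 of the 18 and 5 of the 10. A match describes letters in a window and is no evidence of binding.

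Values below are log2 signals after quantile normalization, and differences are on that log2 scale, so that 1 unit is a doubling. Tests are limma's moderated test over all 10310 probe sets that passed the filter, two-sided, with Benjamini-Hochberg adjustment and a threshold of 0.05. Comparisons share groups: bone marrow SP enters SP against MP, the tissue comparison of the SP groups and the difference between tissues, and the values of these comparisons are not independent. Signals of different probe sets are not compared as levels, since each probe set has its own brightness.

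By the median and the mean over the members, ribosomal protein mRNAs stood highest in bone marrow SP. The median over the 44 tested members was 12.96, 13.00, 12.78, 12.53 and 12.86 on the 5 bone marrow SP arrays. It was 10.98, 11.44, 11.42, 11.48 and 11.53 on the bone marrow MP arrays. Every bone marrow SP array stood above every array of the other groups. On each bone marrow SP array this median lay midway between Rpl22 (92857_at) and Rpl13a (92834_at), so its size does not describe the whole family. Taken member by member, the median difference between bone marrow SP and MP was 0.38. The muscle SP arrays read 11.27, 11.51, 11.75, 11.38 and 11.23, and the muscle MP arrays 11.27, 11.87, 12.17, 11.63 and 11.85, so the muscle groups overlapped with each other. Group means of this median were 12.82 ± 0.19 (SD, n = 5) in bone marrow SP, 11.37 ± 0.22 (n = 5) in bone marrow MP, 11.43 ± 0.21 (n = 5) in muscle SP and 11.76 ± 0.33 (n = 5) in muscle MP. The mean over the 44 members moved less than their median: it was 11.87 ± 0.068 (SD, n = 5) in bone marrow SP, 11.35 ± 0.044 (n = 5) in bone marrow MP, 11.46 ± 0.060 (n = 5) in muscle SP and 11.38 ± 0.057 (n = 5) in muscle MP. By the mean, too, every bone marrow SP array stood above the rest (lowest 11.80, highest of the others 11.56), while the order of the muscle groups was the reverse of that of the medians.

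On the deposited scale, before normalization, the 49 member probe sets together took 6.26%, 4.48%, 4.89%, 3.73% and 5.15% of the summed signal of the bone marrow SP arrays. Their share was 2.58%, 2.80%, 2.78%, 2.39% and 2.84% in bone marrow MP. In muscle it was 3.17%, 3.17%, 3.54%, 2.93% and 2.98% for SP and 2.54%, 2.75%, 2.50%, 2.38% and 2.61% for MP. All bone marrow SP arrays lay above all others by this measure too. Here the muscle SP arrays also lay above the muscle MP arrays without overlap, which the normalized medians did not show. In sorted bulk samples, fewer cells of a type and less RNA per cell cannot be told apart.

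**Figure D1:**
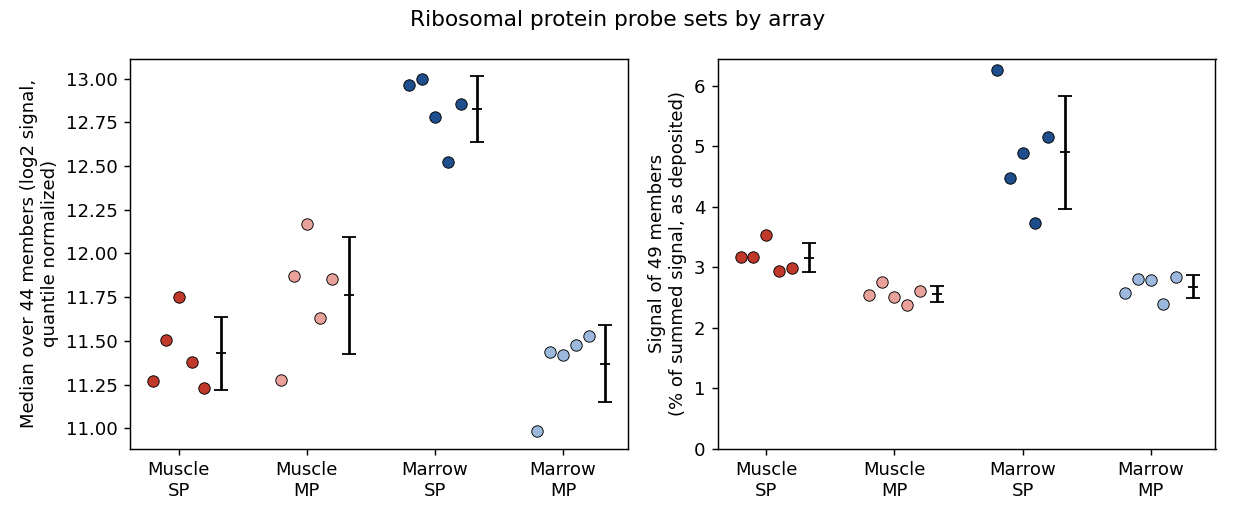
Ribosomal protein signal on each of the 20 arrays. Left, the median log2 signal over 44 tested members after quantile normalization. Right, the share of the deposited signal taken by 49 member probe sets. Points are arrays, and bars are the group mean and SD (n = 5). The 5 bone marrow SP arrays, from 12.53 to 13.00 on the left and from 3.73% to 6.26% on the right, lie above every array of the other groups. Their values on the left lie midway between Rpl22 (92857_at) and Rpl13a (92834_at).

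Within bone marrow, 20 of the 44 tested members (45.5%) were higher in SP than in MP and 0 were lower by limma's adjusted p. Of all probe sets tested, 15.4% were called higher and 14.8% lower in this comparison. At an unadjusted p under 0.05 the counts of members were 22 higher and 0 lower. Their median difference was 0.38, with a range from -0.31 to 1.75, against a median of 0.02 over all probe sets tested, and 34 of the 44 differences were positive. Large subunit probe sets were called in 13 of 20 cases (median 0.75), and small subunit probe sets in 7 of 24 cases (median 0.21). The subunit sets were not matched for probe set signal, with which the difference varied, so they are not compared.

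Median scaling of the arrays in place of quantile normalization gave 13 calls rather than 20. Without normalization there were 29 calls, with a median over the members of 0.81, but there the median of all probe sets tested also stood at 0.31. The share of all probe sets called was not counted under these settings, so the member counts cannot be set against it.

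Among small subunit genes, Rpsa (probe set 97750_at), whose product is also known as the laminin receptor, had the largest difference. It read 14.02, 14.23, 13.84, 13.94 and 13.50 on the bone marrow SP arrays and 11.67, 12.07, 12.51, 12.58 and 11.95 on the bone marrow MP arrays. The muscle SP arrays gave 11.58, 12.36, 12.95, 11.94 and 11.74, and the muscle MP arrays 11.50, 12.21, 12.53, 12.48 and 12.32. Only the bone marrow SP arrays stood apart, and the other 3 groups overlapped. Rpsa was 3.36-fold higher in bone marrow SP than MP, a log2 difference of 1.75 ± 0.26 (SE; adjusted p = 1.74e-05).

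Rps7 (101212_at), a small subunit protein that can bind the p53 regulator Mdm2, read 15.09, 15.06, 15.10, 14.68 and 14.82 in bone marrow SP. It read 13.28, 13.13, 13.84, 13.67 and 13.57 in bone marrow MP. In muscle the SP arrays gave 13.00, 13.88, 14.49, 13.99 and 13.93, and the MP arrays 13.20, 12.82, 13.88, 13.59 and 13.40. All 5 bone marrow SP values exceeded all others. The rise in bone marrow was 1.45 ± 0.24 (SE; adjusted p = 6.27e-05).

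Rps10 (99093_at), a protein near the mRNA entry that is ubiquitinated on collided ribosomes, read 15.47, 15.63, 15.34, 15.59 and 15.34 in bone marrow SP. Bone marrow MP arrays gave 14.19, 14.35, 14.53, 14.09 and 14.66. Muscle SP arrays gave 14.88, 14.48, 15.10, 14.58 and 14.50, and muscle MP arrays 14.30, 14.49, 14.13, 14.45 and 14.45. Bone marrow SP again lay above every other array, and its difference from bone marrow MP was 1.11 ± 0.16 (SE; adjusted p = 1.84e-05).

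The other 4 small subunit probe sets that rose in bone marrow SP did so by less. Rps28 (100758_at) rose by 0.73, Rps3 (101137_at), which lies at the mRNA entry channel, by 0.59, Rps18 (98333_at), a protein of the subunit's head, by 0.49 and the X-linked Rps4x (100780_at) by 0.44, with adjusted p between 0.00225 and 0.0285. Rps3 read 15.87, 15.76, 15.80, 15.61 and 15.90 in bone marrow SP and 15.12, 15.20, 15.13, 15.13 and 15.41 in bone marrow MP, with no overlap. Rps18 was the weakest of the 20 calls: its bone marrow SP arrays spanned 15.58 to 15.82 and overlapped with bone marrow MP array 2 at 15.71, and its adjusted p ranged from 0.00402 to 0.239 over the alternative settings. Leaving out bone marrow SP array 1 or 3, or bone marrow MP array 1, 3 or 4, each ended the Rps18 call, with differences from 0.39 to 0.47. Rps4x without bone marrow SP array 1 stood at 0.37 (adjusted p = 0.0507). With median scaling Rps3 (0.47), Rps18 (0.36) and Rps4x (0.45) were not called (adjusted p = 0.0809, 0.239 and 0.0833).

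Among large subunit genes, Rpl10a (100711_at), the protein of the mobile L1 stalk at the exit of transfer RNA, read 14.71, 14.74, 14.69, 14.91 and 14.37 in bone marrow SP against 12.63, 12.58, 13.62, 13.20 and 12.90 in bone marrow MP. The muscle SP arrays gave 12.24, 13.35, 13.79, 13.36 and 13.24, and the muscle MP arrays 12.64, 12.91, 13.64, 14.02 and 13.25. No array of another group reached the lowest bone marrow SP value. The rise was 1.70 ± 0.28 (SE; adjusted p = 6.59e-05), and the other Rpl10a probe set, 161327_f_at, rose by 0.96 ± 0.18 (SE; adjusted p = 0.000313). With median scaling 161327_f_at stood at 0.53 and was not called (adjusted p = 0.0912).

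Rpl13a (92834_at), which after interferon signalling can leave the ribosome to silence translation, read 12.91, 13.89, 13.43, 13.65 and 13.19 in bone marrow SP. Its bone marrow MP values were 11.26, 11.63, 12.15, 12.23 and 11.93. In muscle it read 10.81, 11.77, 12.32, 11.77 and 11.49 in SP and 11.05, 11.80, 12.13, 11.71 and 11.70 in MP. Bone marrow SP stood above every other array, by 1.57 ± 0.26 (SE; adjusted p = 8.43e-05) over bone marrow MP.

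Rpl19 (97483_at), a large subunit protein, read 15.39, 15.34, 15.14, 14.64 and 14.42 in bone marrow SP and 13.46, 13.17, 13.78, 13.60 and 13.75 in bone marrow MP, a rise of 1.43 ± 0.26 (SE; adjusted p = 0.000215). Muscle SP array 3, at 15.26, reached into the bone marrow SP range, while the other 4 muscle SP arrays lay between 13.32 and 14.27. The second Rpl19 probe set, 161961_at, had a mean of 7.93 over the 20 arrays and a difference of -0.31 ± 0.43 (SE), which did not pass the test.

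Rplp0 (101213_at), the base of the P stalk that binds translation factors, rose by 0.71 ± 0.22 (SE; adjusted p = 0.0189). Its 5 bone marrow SP arrays spanned only 15.91 to 16.07, and bone marrow MP spanned 14.65 to 15.66. Without bone marrow MP array 2, the lowest of them, the difference was 0.57 (adjusted p = 0.066), and without bone marrow SP arrays 3, 4 and 5 it was 0.74 (adjusted p = 0.0962). The large subunit probe sets of Rpl37a (1.01), Rpl7a (0.98), Rpl6 (0.78) and Rpl41 (0.72), the smallest ribosomal protein, also rose. With median scaling Rpl37a stood at 0.33 (adjusted p = 0.347).

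Rpl32 (160478_r_at) was dim. All 5 bone marrow MP arrays lay at the floor of 6.71, and the bone marrow SP arrays read 7.30, 7.85, 8.39, 6.71 and 7.60, so values at the floor stand on both sides. The difference of the floored log2 values was 0.86 ± 0.25 (SE; adjusted p = 0.0102), and no fold is given.

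Paralogs of ribosomal proteins, made by related genes, did not move as one. Rpl39l (104544_at), a paralog of Rpl39 known from testis, read 9.35, 8.96, 9.29, 9.24 and 8.74 in bone marrow SP and 7.84, 7.82, 7.84, 7.12 and 8.25 in bone marrow MP. The muscle SP arrays spanned 8.38 to 9.44 and the muscle MP arrays 8.16 to 8.95. Bone marrow MP was thus the low group for Rpl39l, by 1.34 ± 0.24 (SE; adjusted p = 0.000148) against bone marrow SP and by 0.79 ± 0.24 (SE; adjusted p = 0.00854) against muscle MP. Rpl7l1 (98138_at), a paralog of Rpl7 with a role in large subunit assembly, rose by 0.61 ± 0.19 (SE; adjusted p = 0.0158) in bone marrow SP. Without bone marrow SP array 2 or bone marrow MP array 1 its difference was 0.53 (adjusted p = 0.0503 and 0.0524). With median scaling its difference was 0.42 (adjusted p = 0.123). Rps27l (160389_r_at), a paralog of Rps27 that p53 induces, had a mean of 6.81, close to the floor, and a difference of -0.05.

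**Figure D2:**
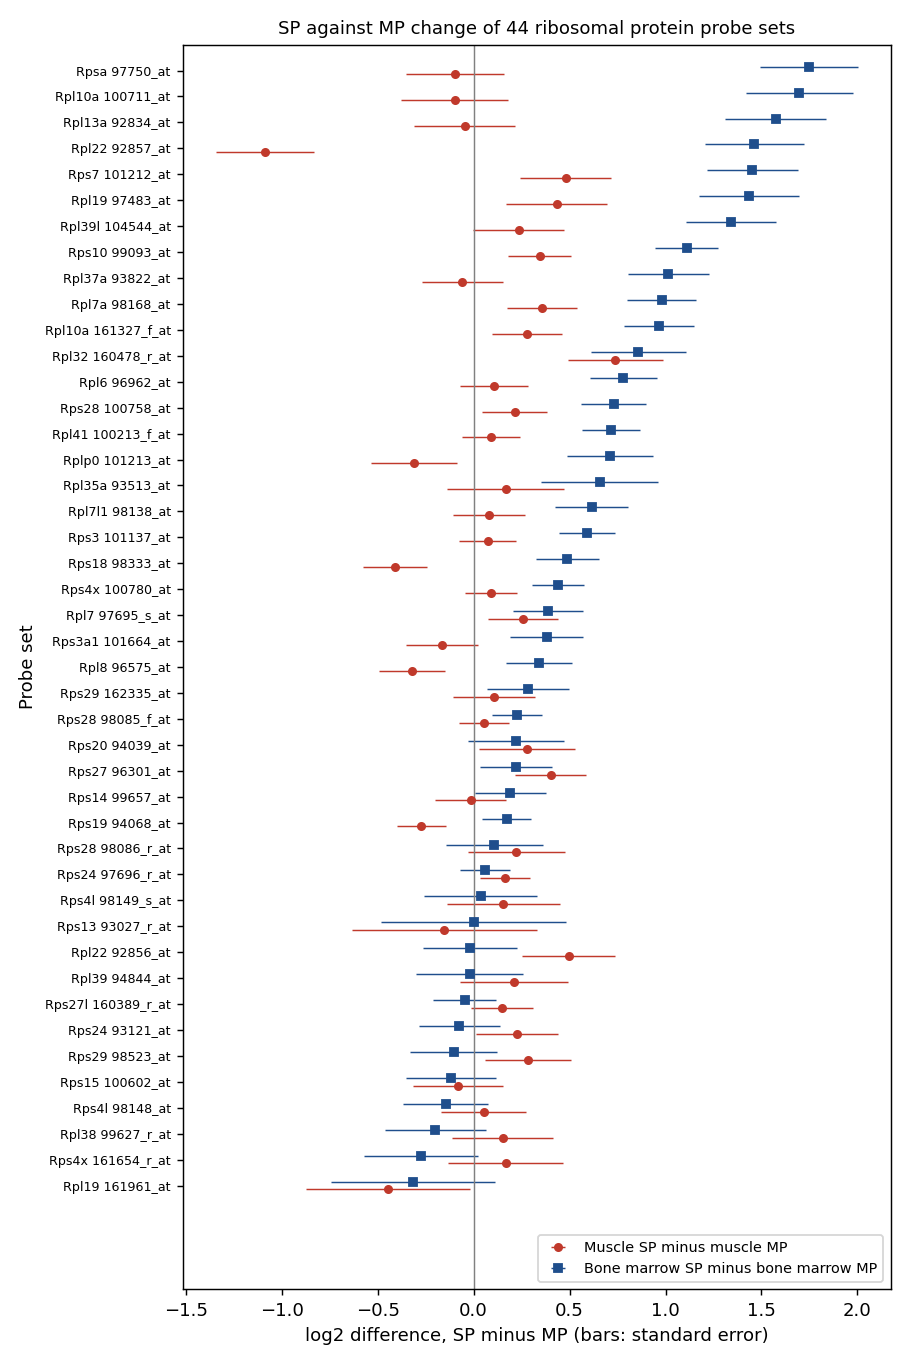
Difference between SP and MP for each of the 44 tested ribosomal protein probe sets, as the log2 difference with its SE, in muscle (red circles) and bone marrow (blue squares), ordered by the bone marrow difference. The bone marrow differences run from -0.31 to 1.75 and 20 passed the test. The muscle differences run from -1.09 to 0.74, and the Rpl22 probe set 92857_at alone passed.

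The difference varied with the signal of the probe set and was largest at middle signals. Of all probe sets tested, 15.4% were higher in bone marrow SP. Of 12 members with a mean log2 signal from 10 to 15, 11 rose in bone marrow SP, with a median of 1.27. Of the 12 brightest, with a mean of 15 or more, 6 rose, with a median of 0.41. Of the 20 members under 10, 3 rose (15%), near the share of all probe sets, with a median of -0.01.

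The 3 brightest members were Rps19 (94068_at), Rps24 (97696_r_at) and a probe set of Rps28 (98085_f_at), and none of them passed in bone marrow. Their mean signals lay at percentile 99.92 or above of the tested probe sets, where quantile normalization leaves little room for a rise. Rps19, the gene most often mutated in Diamond-Blackfan anaemia, read 16.32, 16.60, 16.43, 16.60 and 16.60 in bone marrow SP and 16.43, 16.32, 16.28, 16.28 and 16.37 in bone marrow MP, a difference of 0.17 ± 0.13 (SE; adjusted p = 0.351). Quantile normalization gives arrays the same value at the same rank, and 3 of the 5 bone marrow SP arrays held the same value for Rps19. Without normalization its difference was 0.70 (adjusted p = 0.0186), where the median of all probe sets was 0.31.

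Rps24 differed by 0.06 ± 0.13 (SE) at the bright probe set and by -0.07 ± 0.21 at the dim one, 93121_at. Rps28 had 3 probe sets with unlike outcomes: 100758_at rose by 0.73, while 98085_f_at differed by 0.22 and 98086_r_at by 0.11, neither of which passed. Of 36 alternatives, 1 called Rps24 97696_r_at higher and 2 called Rps28 98085_f_at higher. Their differences reached 0.68 and 0.77 over the alternatives. Rps14 (99657_at), the gene tied to the anaemia of the 5q- syndrome, averaged 6.84 and was at the floor on most arrays, which leaves its change unmeasured here.

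The filter, which asked for 5 arrays above the floor, removed 5 member probe sets. These were 162229_at (0 arrays), 162244_r_at (2 arrays) and 162498_r_at (4 arrays) of Rps4x, 97697_at of Rpl7 (1 array) and 99626_i_at of Rpl38 (0 arrays). Each of these 3 genes had another probe set that was tested.

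**Figure D3:**
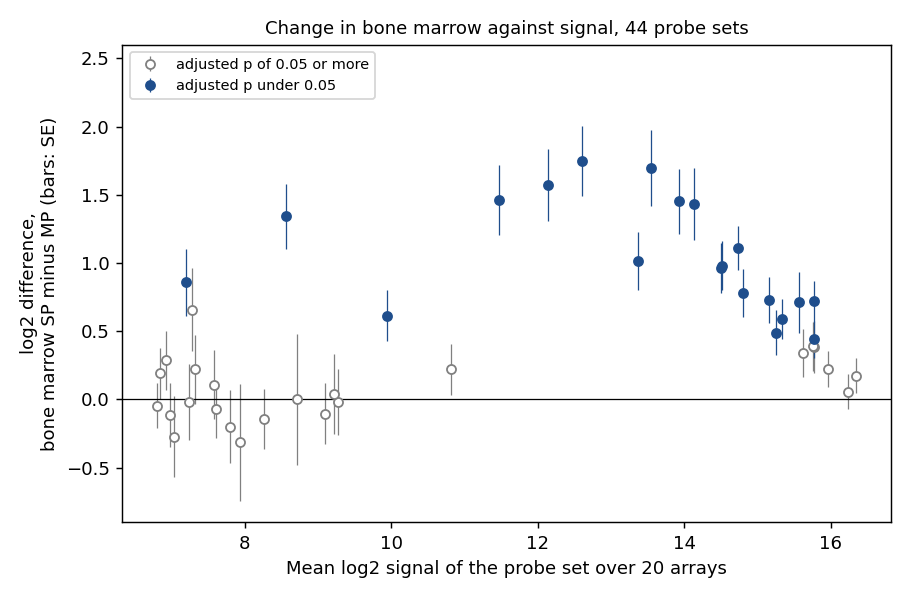
Difference between bone marrow SP and MP of the 44 tested members, as the log2 difference with its SE, against the mean log2 signal of the probe set over 20 arrays. Filled points passed the adjusted p threshold of 0.05. The largest differences lie between 10 and 15, where 11 of 12 members passed. The members brighter than 16 and most members under 10 lie near 0.

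A further 39 probe sets carry several symbols of which at least 1 is a ribosomal protein; they are no members, since the gene cannot be told. Of the 37 of these that were tested, 25 (67.6%) were higher in bone marrow SP than in MP and 0 were lower, with a median of 0.72. Of all probe sets tested, 15.4% were higher and 14.8% lower there. In muscle 2 (5.41%) were higher and 0 lower in SP, near the 5.10% of all probe sets that were higher, while 6.64% were lower.

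In muscle, few members passed the test between SP and MP. Of the 44 tested members 0 were higher in SP and 1 was lower by limma's adjusted p, while 5.10% of all probe sets tested were called higher and 6.64% lower, so few calls were made among all probe sets as well. On the deposited scale the members' share of signal did separate muscle SP (2.93% to 3.54%) from MP (2.38% to 2.75%). At an unadjusted p under 0.05 there were 3 members on either side. Their median difference was 0.13, against 0.03 over all probe sets tested, and the SE of single members lay between 0.13 and 0.48. No normalization and median scaling each gave 2 members higher and 1 lower.

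The member that was lower was Rpl22 (92857_at), a large subunit protein that T cell development requires. It read 11.04, 11.24, 10.36, 10.99 and 10.86 in muscle SP and 12.21, 11.94, 12.21, 11.55 and 12.00 in muscle MP. In bone marrow the order was turned, with 13.01, 12.11, 12.13, 11.40 and 12.52 in SP and 10.64, 11.24, 10.22, 10.64 and 11.14 in MP. The 2 groups of each tissue did not overlap. Rpl22 fell by 1.09 ± 0.26 (SE; adjusted p = 0.00685) in muscle SP and rose by 1.46 ± 0.26 (SE; adjusted p = 0.000143) in bone marrow SP. Its second probe set, 92856_at, gave 0.49 ± 0.24 in muscle and -0.02 ± 0.24 in bone marrow, neither past the test, and the mean over both probe sets was not called in muscle.

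T and NK cell markers varied between the muscle SP arrays: the summed signal of 14 such genes was 20139, 31823 and 57109 on arrays 1 to 3 and 5710 and 5741 on arrays 4 and 5, with Cd3e and Cd3g at the floor on all 5. In muscle MP the sum lay between 2674 and 3570. Erythroid, muscle fibre, granulocyte, macrophage and fibroblast sums also stood higher on muscle SP arrays 1 to 3 than on arrays 4 and 5. The endothelial, B lineage, satellite cell and blood stem and progenitor sums did not. For erythroid markers the sums were 19841, 18330 and 12924 against 2330 and 2626. Leaving out arrays 1 to 3 therefore does not single out T and NK cells. Without muscle SP arrays 1 to 3, Rpl22 differed by -1.06 (adjusted p = 0.0583), which left 0 members higher and 0 lower. The part of any of these cell types in the Rpl22 difference was not tested.

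The change from MP to SP differed between the tissues for 11 of the 44 tested members, each with the larger value in bone marrow; 0 differed the other way, and at an unadjusted p under 0.05 the counts were 19 and 0. Of all probe sets tested, 9.85% were larger in bone marrow and 8.69% smaller. The difference between tissues was 2.55 ± 0.36 (SE; adjusted p = 3.46e-05) for Rpl22, 1.84 ± 0.36 (SE; adjusted p = 0.000952) for Rpsa, 1.80 ± 0.39 (SE; adjusted p = 0.00241) for Rpl10a and 1.62 ± 0.37 (SE; adjusted p = 0.00359) for Rpl13a. Those of Rpl39l (1.11), Rpl37a (1.07), Rplp0 (1.02), Rps7 (0.97), Rps18 (0.90), Rps10 (0.77) and Rpl41 (0.63) also passed. The values of Rpl22 and Rpl10a are those of 92857_at and 100711_at. Their second probe sets were not called, with -0.51 (adjusted p = 0.349) for Rpl22 92856_at and 0.68 (adjusted p = 0.0713) for Rpl10a 161327_f_at. With the replicate number as a block Rpl41 was not called (adjusted p = 0.0516). With median scaling 4 calls were left, and Rpl41 then stood at -0.01, on the other side of 0. The calls of Rpl13a, Rpl37a, Rplp0, Rps7, Rps18 and Rps10 were lost as well, with Rpl13a at 1.17 (adjusted p = 0.0611). Without the 3 bone marrow SP arrays of highest beta-actin ratio (arrays 3, 4 and 5) there were 6. The Rps7 and Rpl41 calls were the weakest, lost without any 1 of 15 and 16 single arrays, and the Rplp0 call was lost without muscle MP array 3 or bone marrow MP array 2.

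**Figure D4:**
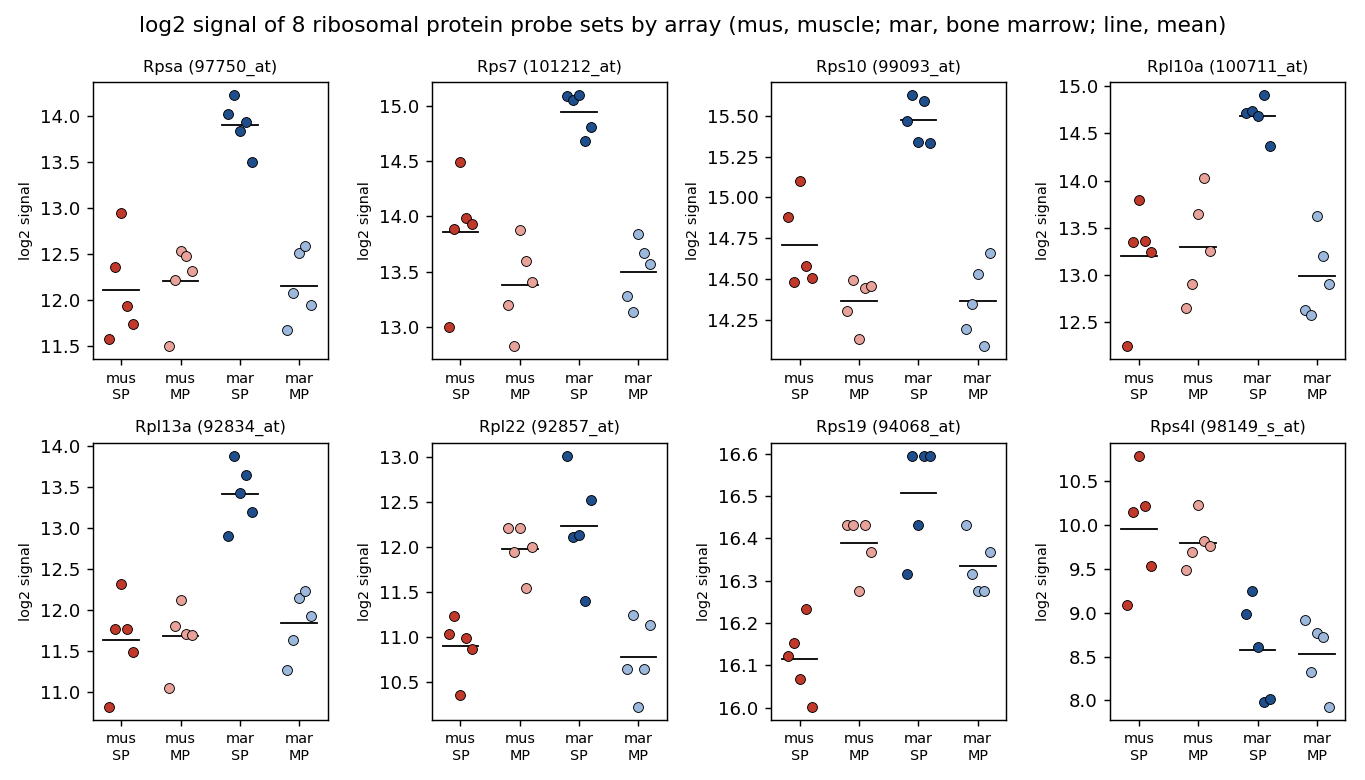
log2 signal of 8 ribosomal protein probe sets on each of the 20 arrays, with the group mean as a line; the vertical axes differ and do not start at 0. Rpsa, Rps7, Rps10, Rpl10a and Rpl13a are high on the bone marrow SP arrays alone. Rpl22 is also high on the muscle MP arrays, Rps19 spans only 16.00 to 16.60, and Rps4l is higher in both muscle groups.

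Between the SP groups, ribosomal protein mRNAs were lower in muscle. Of the 44 tested members 18 (40.9%) were lower in muscle SP than in bone marrow SP and 1 was higher, where 21.2% of all probe sets were lower and 17.1% higher. Their median difference was -0.36, against -0.11 over all probe sets. Rpsa fell by 1.80 ± 0.26 (SE; adjusted p = 5.17e-06), Rpl13a fell by 1.78 ± 0.26 (SE; adjusted p = 8.68e-06) and Rpl10a fell by 1.49 ± 0.28 (SE; adjusted p = 0.000151). Rpl22 fell by 1.34, Rps7 by 1.09, Rpl37a by 0.93, Rps18 by 0.79 and Rpl19 by 0.78, the last with -0.55 (adjusted p = 0.0712) without muscle SP array 1, -0.67 (0.0596) without bone marrow SP array 1 and -0.69 (0.059) without bone marrow SP array 2. The second Rpl22 probe set, 92856_at, differed by -0.34 (adjusted p = 0.302) and was not called. With median scaling Rpl37a (-0.61) and Rpl19 (-0.68) were not called (adjusted p = 0.0634 and 0.0623). Rps3a1 fell by 0.53 and Rps19 by 0.39, with adjusted p of 0.0293 and 0.0187. Neither Rps3a1 nor Rps19 had been called within bone marrow. The Rps19 call was lost with median scaling (adjusted p = 0.16), with only the groups compared (0.0525), and without the arrays of highest GAPDH ratio (0.104), beta-actin ratio (0.14) or T and NK marker sum (0.105).

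Between the MP groups few members differed. Of the 44, 4 were higher in muscle MP than in bone marrow MP and 1 was lower, with a median of 0.00, while 20.9% of all probe sets were higher and 25.6% lower and their median was -0.14. Rpl22 92857_at was higher in muscle MP by 1.21 ± 0.26 (SE; adjusted p = 0.000472), and Rpl22 92856_at was lower by 0.85 ± 0.24 on the same scale (a difference of -0.85; adjusted p = 0.00634), so that the 2 probe sets of 1 gene were called in opposite directions. Rpl41 (100213_f_at) was higher in muscle MP by 0.88 ± 0.15 (SE; adjusted p = 4.15e-05), with 16.02, 16.02, 15.91, 15.95 and 16.12 against 14.96, 14.98, 15.50, 15.08 and 15.07. This Rpl41 call was lost with median scaling, at 0.26 (adjusted p = 0.317), and without normalization, at 0.44 (adjusted p = 0.0974).

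Rps4l (98149_s_at), the relative of Rps4x annotated as a pseudogene, was the member that was higher in both muscle groups. It read 9.08, 10.14, 10.79, 10.22 and 9.53 in muscle SP and 9.49, 9.69, 10.23, 9.82 and 9.76 in muscle MP. In bone marrow it read 8.98, 9.24, 8.61, 7.99 and 8.02 in SP and 8.92, 8.33, 8.77, 8.72 and 7.92 in MP. Muscle MP did not overlap with bone marrow MP, while muscle SP array 1 lay below bone marrow SP array 2. The tissue difference was 1.38 ± 0.29 (SE; adjusted p = 6e-04) for SP and 1.27 ± 0.29 (SE; adjusted p = 0.00112) for MP. The SP difference was 0.85 (adjusted p = 0.0834) without bone marrow SP arrays 3, 4 and 5. Its other probe set, 98148_at, differed by 0.21 and 0.01 in these comparisons and was not called. The s suffix marks probes shared by related transcripts.

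Other genes of ribosome production were counted in the same fit, with the brightest probe set for each gene. RNA polymerase I and its factors had 8 of 16 tested genes higher in bone marrow SP than in MP (50%, against 15.4% of all probe sets) and 0 lower, with a median of 0.55; at an unadjusted p under 0.05, 8 were higher and 1 lower. Polr1b, its second largest subunit, rose by 1.75, the shared subunits Polr2h and Polr2l by 1.25 and 1.10, and the initiation factor Taf1c by 0.97. In muscle 0 of these 16 genes were called in either direction by limma, and 2 had an unadjusted p under 0.05.

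Ribosome assembly and nucleolar genes had 11 of 40 tested genes higher (27.5%, against 15.4% of all probe sets) and 2 lower (5%, against 14.8%) in bone marrow SP, with a median of 0.25. Nop16 rose by 1.56, Nop56, a core protein of box C/D particles that methylate ribosomal RNA, by 1.40, Gar1 of the pseudouridylation particles by 1.10 and Gnl3 (nucleostemin) by 1.09. Pwp1 fell by 1.10 and Surf6 by 0.74. Between the SP groups 26 of the 40 (65%, against 21.2% of all probe sets) were lower in muscle and 0 higher, with a median of -0.99; at an unadjusted p under 0.05 the counts were 27 and 0. In muscle SP against MP 1 was higher, Nop56 by 1.06, and 4 were lower (10%, against 6.64%): Fbl, Nhp2, Brix1 and Tsr1.

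Other mRNAs with a terminal oligopyrimidine tract had 8 of 16 tested genes higher (50%, against 15.4% of all probe sets) and 0 lower in bone marrow SP, with a median of 0.51 and the same counts at an unadjusted p under 0.05. In muscle SP against MP 1 was higher (6.25%, against 5.10%) and 2 were lower (12.5%, against 6.64%). Hnrnpa1, an RNA-binding protein of splicing, rose by 1.58, the elongation factors Eef1d and Eef2 by 1.34 and 0.97, and the poly(A)-binding protein Pabpc1 by 1.18. Fau, which encodes the small subunit protein eS30 fused to a ubiquitin-like part and which the symbol rule does not take, differed by -0.28 ± 0.26 (SE; adjusted p = 0.47).

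Mitochondrial ribosomal proteins, which build the separate ribosome of mitochondria, had 14 of 60 tested genes higher (23.3%, against 15.4% of all probe sets) and 3 lower (5%, against 14.8%) in bone marrow SP, with a median of 0.28. Mrps25 rose by 1.93, Mrps5 by 1.20, Mrpl52 by 1.14 and Mrpl28 by 1.08. In muscle SP against MP 1 was higher (1.67%) and 4 were lower (6.67%), near the 5.10% and 6.64% of all probe sets.

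Regulators of ribosome synthesis had 5 of 12 tested genes higher (41.7%, against 15.4% of all probe sets) in bone marrow SP and 1 lower (8.33%, against 14.8%). The transcription factors Mycn and Myc, which drive ribosome production, rose by 1.45 and 1.24, Larp1 by 0.93 and Tsc2, an inhibitor of mTOR, by 0.82. Mdm2 fell by 0.53. In muscle 0 of the 12 were called by limma, and 2 were higher and 2 lower at an unadjusted p under 0.05.

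Markers of cell types moved with the sort. For scale, 15.4% of all probe sets tested were higher and 14.8% lower in bone marrow SP than in MP. In muscle 5.10% were higher and 6.64% lower in SP. In muscle, the 10 endothelial markers summed to 167545 to 193068 in SP and 118806 to 132217 in MP, and the 6 satellite cell markers to 1996 to 2465 in SP and 5369 to 7841 in MP. Fibroblast markers, of which 5 of 8 were lower in SP, summed to 66186 to 113667 in SP and 175982 to 260210 in MP. All 8 macrophage markers were lower in muscle SP than in MP. In bone marrow SP 12 of 13 tested blood stem and progenitor markers were higher than in MP and 0 lower, and their summed signal was 36024 to 51215 against 9529 to 12926. Of 14 T and NK markers 11 were higher and 0 lower, with sums of 52569 to 108093 against 6119 to 9609 and Thy1 at the floor in MP. Erythroid markers (2 of 7 higher) summed to 24367 to 55950 in SP against 13652 to 21519 in MP. Endothelial markers (6 of 10 higher, 1 lower) summed to 7012 to 13304 against 4188 to 4726, with Tek and Tie1 at the floor in MP. Fibroblast markers (2 of 8 higher) summed to 3807 to 13610 against 2232 to 3079, with Col1a2, Serpinf1 and Thy1 at the floor in MP. All 11 B lineage markers were lower, with sums of 4048 to 7722 against 25092 to 44973, and 6 of 14 granulocyte and 5 of 8 macrophage markers were lower. The part of any of these cells in the ribosomal protein difference was not tested.

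RNA quality also moved with the sort, in both tissues. For the GAPDH control, the signal of the 3′ probe set over that of the 5′ probe set, as log2, was 3.72 ± 0.60 (SD, n = 5) in bone marrow SP and 2.67 ± 0.72 (n = 5) in bone marrow MP, with an exact two-sided permutation p of 0.0397 and the same value after adjustment over 4 tests. In muscle it was 3.83 ± 0.61 (SD, n = 5) in SP and 2.66 ± 0.62 (n = 5) in MP (exact permutation p = 0.0238, adjusted 0.0317). The beta-actin ratio was 2.07 ± 0.72 (SD, n = 5) against 0.98 ± 0.28 (n = 5) in bone marrow (exact permutation p = 0.00794, adjusted 0.0317) and 2.52 ± 0.40 (SD, n = 5) against 1.44 ± 0.43 (n = 5) in muscle (exact permutation p = 0.0159, adjusted 0.0317). The part of RNA quality in the ribosomal protein differences was not tested. With the GAPDH ratio as a covariate 21 members were higher in bone marrow SP, while Rps18 stood at 0.33 and was not called (limma adjusted p = 0.228). Without the 3 arrays of highest GAPDH ratio the count was 21. It was 16 without bone marrow SP arrays 3, 4 and 5, those of highest beta-actin ratio. The share of all probe sets called was not counted under these settings, and the counts do not measure the part of RNA quality.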

How the data were processed

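RNA of 20 sorted cell samples was hybridised to 1-colour Affymetrix arrays. The deposited values are probe set intensities on a linear scale, from 0 upwards. Their 2% trimmed mean was 1501 on every array, to the nearest unit. The array software, the probe summary and any background correction: not given in the sources used here. Array medians spanned 319 to 613 and differed by 0.94 on the log2 scale, so intensities were quantile normalized, floored at their 25th percentile (105, or 6.71 as log2) and log2 transformed. Probe sets above the floor on at least 5 of 20 arrays were kept (10310 of 12422, after 66 controls were left out). One limma model (limma 3.58.1, R 4.3.3) held all 4 groups, without a replicate block, with Benjamini-Hochberg adjustment over all probe sets. Plots come from matplotlib 3.10.9 (Python 3.11.15). The number of arrays limits the precision.

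The array's probe-to-gene table gave 10833 probe sets 1 symbol, 396 several and 1193 none. Probe sets with a letter before _at (s, f, g, r, i) can take up related transcripts. For each other gene list the brightest tested probe set stands for a gene. On simulated data for bone marrow SP against MP over 10310 probe sets, 52% of changes of 1 log2 unit and 97% of changes of 2 were recovered, with 6 false calls. The simulation changed 100 probe sets for each size and drew independent normal noise, with no floor applied. Its rates need not hold for the real arrays, where 15.4% of probe sets were called higher and 14.8% lower.

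Named were, in each comparison, the 8 members with the largest called change each way, a set of known genes and paralogs, the 3 brightest and the 3 dimmest members, genes whose probe sets had different calls, and up to 4 called genes of each other list. Rpl6, Rpl7a, Rpl32, Rps18 and Rps3a1 were in part named after their values were seen. The members and lists were chosen with earlier results of these data known. Alternatives changed the normalization, floor, filter, fit and probe sets, or left out arrays.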

Additional observations from a re-analysis of the deposited data

Results flagged for a closer look

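The change from MP to SP differed between bone marrow and muscle by the interaction test for 11 members. The log2 difference, bone marrow minus muscle, was 2.55 for Rpl22 (92857_at), 1.84 for Rpsa, 1.80 for Rpl10a (100711_at), 1.62 for Rpl13a and 1.11 for Rpl39l. It was 1.07 for Rpl37a, 1.02 for Rplp0, 0.97 for Rps7, 0.90 for Rps18, 0.77 for Rps10 and 0.63 for Rpl41. The second probe sets of Rpl22 (-0.51) and Rpl10a (0.68) were not called.

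Single arrays stood far from the other 4 of their group by Dixon's test, in 13 of 124 groups looked at. A group with all arrays at the floor, as for Rps27l in muscle MP, is among the 124 but could not be tested. Chance gives about 1 in 20 groups of untied values, but in 7 of the 13 the other 4 arrays were all at the floor, where any value above it stands apart, so that rate does not apply to them. Bone marrow MP array 1 had the lowest member median, 10.98, with the others at 11.42 to 11.53. In the same group Rpl41 read 15.50 on array 3, and Rps4x (100780_at) read 15.79 and Rps3 15.41 on array 5, each the highest. In bone marrow SP, Rpl10a (161327_f_at) read 14.63 on array 1, the lowest, and Rps4x (161654_r_at) read 7.06 on array 3.

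The other arrays that stood apart concern dim probe sets near the floor of 6.71. Rps27l read 7.46 on muscle SP array 1. Rps29 (162335_at) read 7.91 on muscle SP array 5, 7.25 on muscle MP array 1 and 7.21 on bone marrow MP array 1. Rps14 read 7.03 on muscle SP array 1, 7.10 on muscle MP array 5 and 7.15 on bone marrow MP array 3.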

How the results depend on the processing

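Of 50 calls of named members, 27 held under every alternative, 23 were lost under at least 1 and 1 of these reversed: the Rpl41 difference between tissues, -0.00501 with median scaling. Calls in bone marrow SP against MP (20 higher) fell to 13 with median scaling, and the members' median was 0.81 without normalization and 0.72 for members of mean log2 signal of at least 10. For muscle SP against MP, 0 members were higher: 2 were with no further normalization or median scaling, 3 without the 3 arrays of highest GAPDH ratio (muscle SP 1, bone marrow SP 4 and 5), and 1 with the trend and robust options, array weights, the replicate block, the GAPDH covariate or without the bone marrow SP arrays of highest beta-actin ratio. Without single arrays this count was 0 to 1. Lower there was 1: 2 with no filter, the trend and robust options or only the groups compared, and 0 with gene means or without the muscle SP arrays of highest T and NK marker sum. For muscle SP against bone marrow SP, 1 was higher: 2 with no filter, 0 without the beta-actin arrays, without suffixed members or at a mean of at least 10, and 1 to 2 without single arrays. For muscle MP against bone marrow MP, 4 were higher, but 2 without suffixed members or at a mean of at least 10, and 1 was lower: 3 with median scaling or only the groups compared, 2 with array weights or the replicate block, 0 with gene means or at a mean of at least 10, and 1 to 2 without single arrays. Differences between tissues (11) numbered 4 with median scaling, 17 with the trend and robust options, 6 without the beta-actin arrays and 8 to 13 without single arrays. Without normalization the median of all probe sets moved to 0.31 in bone marrow. The share of all probe sets called was not counted under the alternatives, so none of these counts can be set against it. Leaving out arrays by beta-actin ratio or by T and NK markers, and the limits of 10 and 15 on the mean, were chosen after seeing the data. Same-numbered arrays deviated together in part: r was over 0.1 in 14 of 30 pairs (from -0.14 to 0.30), in all 6 pairs of number 1, and 8 of 20 arrays were closest to their own number. No label says what the numbers share, and not every pair passed 0.1, so the replicate block stayed an alternative; it gave 21 calls in bone marrow and ended the Rpl41 difference between tissues (adjusted p = 0.0516). Signals near the floor limit what dim members can show.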
